A study of Mus musculus with 4 samples.

Results

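The genes of bile acid synthesis, conjugation and transport were examined in whole livers of mice that lacked Brg1 in hepatocytes and in the livers of their wild type littermates. The 10 genes were chosen by name from the 22103 entries of the deposited table, and each was found under its own symbol. They comprise the hydroxylases *Cyp7a1*, *Cyp8b1*, *Cyp27a1* and *Cyp7b1*, the conjugating enzymes *Slc27a5* and *Baat*, the nuclear receptors *Nr1h4* (FXR) and *Nr0b2* (SHP), and the carriers *Abcb11* (BSEP) and *Slc10a1* (NTCP). The livers came from 2 wild type (WT) and 2 hepatocyte-specific Brg1 knockout (LKO) mice, labelled KO in the sample records. The mice were males of 8 weeks, and the LKO mice carried floxed *Smarca4* together with *Alb*-Cre, a recombinase driven by the albumin promoter in hepatocytes. All 4 mice had taken alcohol, so no liver without alcohol enters the comparison. The feeding is described as an ethanol liquid diet of 2 weeks with a final ethanol gavage, and the labels give 15 days. The comparison asks whether loss of Brg1, the ATPase of a chromatin remodelling complex, was accompanied by different levels of these transcripts in the alcohol-fed liver.

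Hepatocytes make bile acids from cholesterol. The classic pathway begins with 7α-hydroxylation by Cyp7a1 and the alternative pathway with oxidation of the side chain by Cyp27a1, followed by Cyp7b1, while Cyp8b1 adds the 12α-hydroxyl group that cholic acid carries. The products are activated by Slc27a5, joined to taurine by Baat, pumped into the canaliculus by Abcb11, and taken back from portal blood by Slc10a1. Bile acids are ligands of FXR, which induces *Nr0b2* and *Abcb11*, and SHP in turn represses *Cyp7a1* and *Cyp8b1*.

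Promoter sequence was searched for motifs of FXR, LRH-1 (*Nr5a2*) and HNF4A, the regulators best known to act on these genes. The RefSeq promoter table (GRCm38.p6) held 6 of the 10 genes, namely *Cyp8b1*, *Cyp27a1*, *Nr1h4*, *Nr0b2*, *Abcb11* and *Slc10a1*, and all 6 were searched. Each promoter covered 250 bases before and 50 bases after the start site, and sites further away were not searched. Sequence is printed for the 3 genes in which such a motif matched, while *Cyp27a1* and *Nr1h4* matched none of the motifs. Each stretch below has 70 bases, is written 5′ to 3′ on the strand of the gene, and has the matched letters in capitals.
*Abcb11*, chr2:69342647-69342716, minus strand: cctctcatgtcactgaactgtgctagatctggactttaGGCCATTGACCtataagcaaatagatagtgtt
*Nr0b2*, chr4:133553301-133553370, plus strand: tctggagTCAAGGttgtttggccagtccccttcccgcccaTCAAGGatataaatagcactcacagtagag
*Cyp8b1*, chr9:121916331-121916400, minus strand: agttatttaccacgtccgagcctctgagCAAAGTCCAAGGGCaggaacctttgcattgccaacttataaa
The capitals in *Abcb11* match GGNCA and TGACC with a single base between them, an inverted repeat of the kind FXR binds, at −62 to −52 from the start site, and 0.237% of the 32851 promoters in the table held a match on either strand. In *Nr0b2* the capitals mark the LRH-1 core TCAAGG at −68 to −63 and at −35 to −30, a motif found in 14.4% of the promoters. In *Cyp8b1* they mark the HNF4A motif CAAAGTCCA at −67 to −59, found in 0.475% of the promoters, and the LRH-1 motif CAAGGNC at −60 to −54, found in 17.8%, which overlap. CAAGGNC also matched *Nr0b2* at −201 to −195, outside the printed stretch. A TATAAA box, found in 13.6% of the promoters, stood at −28 to −23 in *Nr0b2* and at −31 to −26 in *Cyp8b1*, and on the opposite strand at −128 to −123 in *Slc10a1*. *Slc10a1* had 2 promoters in the table, and the promoter that matched lies upstream of the start of the transcript measured here. The stricter inverted repeat with GGTCA as its left arm and the looser motif TNANTGACC, found in 0.0396% and 2.47% of the promoters, matched none of the 6 genes. The motif with the GGNCA arm and the TCAAGG motif were added after the sequences had been seen, and a match of letters is a description of the sequence only.

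All levels are in FPKM, fragments scaled to the length of the transcript and the size of the library, so levels of different genes are compared per length. Estimated library totals ranged from 72586000 to 80912000 reads. *Smarca4* (chromosome 9, 21616169 to 21704230, plus strand) measured 1.78 and 1.95 FPKM in the WT livers and 0.608 and 0.579 FPKM in the LKO livers, a log2 fold change of −1.50 (SE 0.34, 95% interval −2.23 to −0.78, adjusted p = 1, limma). The LKO level was 31.8% of WT in whole liver, where cells without *Alb*-Cre also contribute. The 8 hepatocyte markers summed to between 26345.6 and 30492.1 FPKM in every liver, with *Alb* at 10709.9 to 12485.9 FPKM. Both second replicates had higher values across the table, with rescaling factors of 1.12 (WT) and 1.11 (LKO) against 0.909 and 0.883 for the first replicates. Levels are as deposited unless called rescaled. The place of a liver among the others can change with rescaling, and rescaled values are given for some genes only. In whole liver, fewer hepatocytes and less RNA per hepatocyte cannot be told apart.

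None of the 10 bile acid genes passed the study's threshold, an unadjusted p under 0.05 together with a change of more than 2-fold, which 0.980% of the 12346 tested genes passed. By limma, 0 of the 10 had an unadjusted p under 0.05, against 2.00% of all genes, and a voom fit on estimated reads likewise called 0. After quantile normalization *Nr1h4* (−0.48) had an unadjusted p under 0.05, as did 3.04% of all genes, but its adjusted p was 1 and it was not called. The log2 fold changes ran from −0.46 (*Nr1h4*) to 0.29 (*Cyp8b1*), with 6 below 0 and 4 above, and 53.9% of all genes tested were below 0. Their median was −0.19, compared with −0.02 over all genes tested. All 10 lay within 1.5-fold of WT, as did 93.3% of all genes. The 95% intervals reached 0.68 to 1.46 log2 units to either side, so changes of up to about that size were not detectable with 2 livers per group. Every adjusted p was 1.

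**Figure D1:**
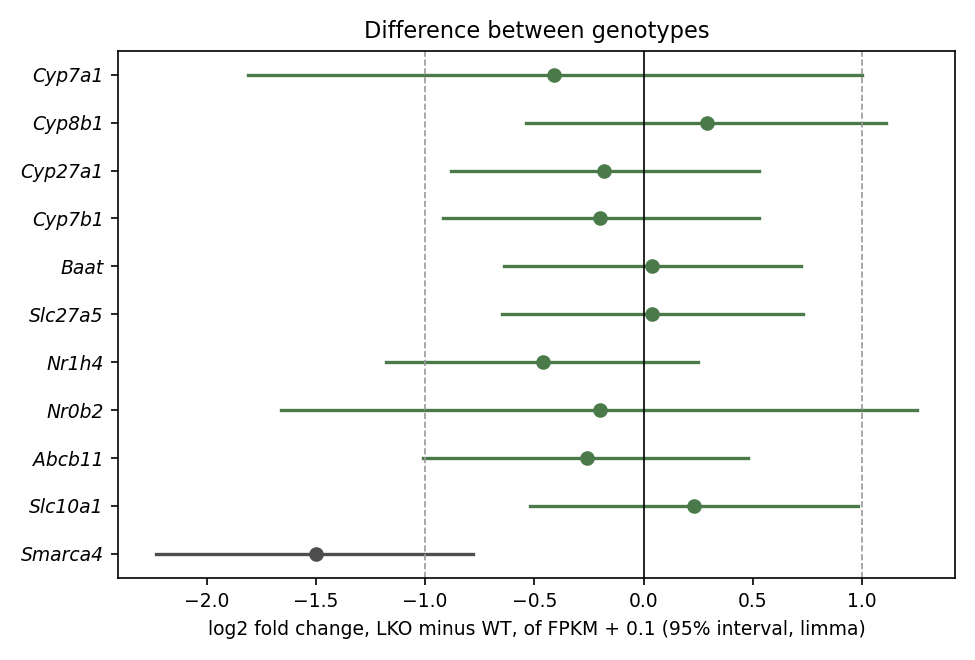
Log2 fold change of log2(FPKM + 0.1), LKO minus WT, with its 95% interval from limma, for the 10 bile acid genes and *Smarca4*; dashed lines mark a 2-fold change. All 10 intervals cross 0, whereas that of *Smarca4* runs from −2.23 to −0.78.

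Summed over the 10 genes, the level was 479.2 and 670.8 FPKM in the WT livers and 573.6 and 580.4 FPKM in the LKO livers, and LKO stood at 100.4% of WT. By role, the LKO sum was 100.3% of WT for the hydroxylases, 102.5% for conjugation, 77.1% for the receptors and 104.8% for the carriers. The WT livers differed widely, with 98.5 and 166.4 FPKM for the hydroxylases and 110.9 and 173.1 FPKM for the carriers. With 1 liver left out the hydroxylases ran from 79.9% to 134.9% and the carriers from 86.0% to 134.2%. Conjugation then ran from 94.4% to 112.2% and the receptors from 65.1% to 94.4%. The receptor sums, 41.4 and 60.0 FPKM in WT against 35.3 and 42.9 FPKM in LKO, overlapped between genotypes. The sums are carried by the most abundant genes and therefore say little of *Cyp7a1* or *Nr0b2*.

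In order of mean level over the 4 livers the genes ranked *Slc27a5* (177.9 FPKM), *Slc10a1* (105.8), *Baat* (75.0), *Cyp8b1* (68.3), *Cyp27a1* (54.0), *Abcb11* (39.7), *Nr1h4* (39.6), *Cyp7b1* (8.75), *Nr0b2* (5.36) and *Cyp7a1* (1.71 FPKM). The ranges over the 4 livers stayed apart for 3 pairs of neighbours, *Slc27a5* above *Slc10a1*, *Cyp27a1* above *Abcb11* by a narrow margin of 49.4 to 49.1 FPKM, and *Nr1h4* above *Cyp7b1*. All other neighbours overlapped. The enzyme that limits the classic pathway thus had the lowest mean level of the group in these livers.

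**Figure D2:**
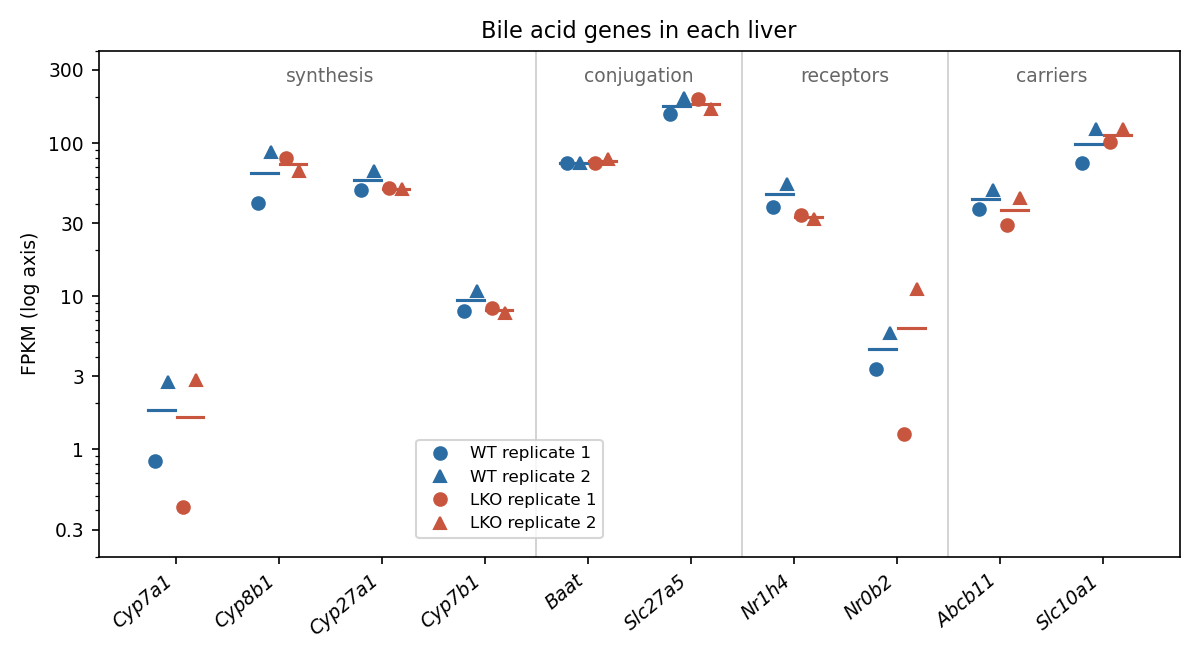
FPKM of the 10 genes in each liver on a log axis, with WT in blue, LKO in red, circles for replicate 1 and triangles for replicate 2; short bars are group means. *Cyp7a1* and *Nr0b2* spread most within the LKO group, from 0.423 to 2.82 FPKM and from 1.27 to 11.1 FPKM, and only *Nr1h4* has both LKO livers below both WT livers.

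*Cyp7a1* (chromosome 4, 6265612 to 6275633, minus strand, 6 exons; GRCm38, GENCODE M21) encodes the rate-limiting hydroxylase of the classic pathway. It measured 0.838 and 2.75 FPKM in the WT livers and 0.423 and 2.82 FPKM in the LKO livers. The LKO livers thus held both the lowest and the highest value, and the genotypes overlapped. The group means were 1.80 ± 1.35 FPKM in WT and 1.62 ± 1.69 FPKM in LKO (SD, n = 2 each). The log2 fold change was −0.41 (SE 0.65, 95% interval −1.81 to 1.00). These values rest on about 283 and 918 reads in WT and 138 and 853 reads in LKO. Counting error alone gave 95% Poisson intervals of 0.355 to 0.500 FPKM for the lower LKO liver and 2.63 to 3.01 FPKM for the higher, which do not meet.

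*Cyp8b1* (chromosome 9, 121914356 to 121916305, minus strand, 1 exon), which directs synthesis towards cholic acid, measured 40.3 and 87.2 FPKM in WT and 79.9 and 65.7 FPKM in LKO. As deposited both LKO livers lay between the WT livers. After rescaling LKO replicate 1 (90.4 FPKM) was above both WT livers (44.3 and 77.5 FPKM). The log2 fold change was 0.29 (SE 0.38, 95% interval −0.54 to 1.11). *Cyp27a1* (chromosome 1, 74713574 to 74737892, plus strand, 9 exons), the mitochondrial sterol 27-hydroxylase, measured 49.4 and 65.6 FPKM in WT and 50.9 and 49.9 FPKM in LKO. *Cyp7b1* (chromosome 3, 18071950 to 18243338, minus strand, 6 exons), the oxysterol 7α-hydroxylase, measured 8.04 and 10.8 FPKM in WT and 8.41 and 7.80 FPKM in LKO. For both genes of the alternative pathway the LKO livers were, as deposited, close to the lower WT liver. Their log2 fold changes were −0.18 (95% interval −0.88 to 0.53) and −0.20 (−0.92 to 0.53). After rescaling, *Cyp27a1* measured 54.3 and 58.3 FPKM in WT and 57.6 and 45.1 FPKM in LKO. Rescaled *Cyp7b1* measured 8.84 and 9.57 FPKM in WT and 9.52 and 7.05 FPKM in LKO. LKO replicate 2 was then below both WT livers in each gene.

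Within each liver the pair of alternative pathway enzymes kept nearly the same ratio, whereas the balance towards *Cyp7a1* did not. *Cyp27a1* exceeded *Cyp7b1* by 6.14- and 6.10-fold in the WT livers and by 6.05- and 6.40-fold in the LKO livers. *Cyp8b1* exceeded *Cyp7a1* by 48.1- and 31.7-fold in WT and by 188.8- and 23.3-fold in LKO. Both extremes of this second ratio lay in the LKO livers, and the range over the 4 livers was 8.10-fold against 1.06-fold for the first.

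As deposited, the conjugating enzymes *Baat* and *Slc27a5* had the smallest ranges over the 4 livers of the 10 genes, 1.06- and 1.28-fold. After rescaling this did not hold for *Slc27a5*, whose LKO livers differed by 1.47-fold, while *Cyp27a1* ran from 45.1 to 58.3 FPKM. *Baat* (chromosome 4, 49489422 to 49506557, minus strand, 4 exons), which transfers taurine, measured 74.2 and 73.9 FPKM in WT and 73.7 and 78.4 FPKM in LKO. As deposited the LKO livers held both the lowest and the highest value, whereas after rescaling WT replicate 2 was lowest (65.7 FPKM). The log2 fold change was 0.04 (SE 0.32, 95% interval −0.64 to 0.72). *Slc27a5* (chromosome 7, 12988346 to 12998192, minus strand, 10 exons), the bile acyl-CoA synthetase of the step before, measured 154.1 and 197.3 FPKM in WT and 194.6 and 165.6 FPKM in LKO. The LKO livers lay inside the WT range as deposited. After rescaling they lay outside it, with 169.4 and 175.4 FPKM in WT and 220.3 and 149.7 FPKM in LKO. The log2 fold change was 0.04 (95% interval −0.65 to 0.73).

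*Nr1h4* (chromosome 10, 89454234 to 89533585, minus strand, 10 exons), the gene of FXR, was lower in both LKO livers than in both WT livers. It measured 38.1 and 54.3 FPKM in WT and 34.0 and 31.9 FPKM in LKO. The means were 46.2 ± 11.5 and 32.9 ± 1.54 FPKM (SD, n = 2 each), and LKO stood at 71.3% of WT. The log2 fold change of −0.46 did not pass the test (SE 0.33, 95% interval −1.18 to 0.25). It was the only 1 of the 10 genes whose genotypes did not overlap, and 20.7% of all genes tested did not overlap (10% lower in LKO and 10.7% higher), so the count of 1 in 10 is below the background. After rescaling between libraries 3 of the 10 did not overlap, *Nr1h4* and *Abcb11* lower in LKO and *Slc10a1* higher, against 29.0% of all genes.

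*Nr0b2* (chromosome 4, 133553376 to 133556536, plus strand, 2 exons), the gene of the corepressor SHP that FXR induces, differed most between livers of the same genotype. It measured 3.37 and 5.73 FPKM in WT and 1.27 and 11.1 FPKM in LKO. As for *Cyp7a1*, the lowest and the highest value were both in the LKO group. The mean was higher in LKO (6.16 ± 6.93 against 4.55 ± 1.66 FPKM), while the log2 fold change was −0.20 (SE 0.68, 95% interval −1.66 to 1.25), so the direction depended on the scale. The level of *Nr1h4* was 11.3- and 9.48-fold that of *Nr0b2* in the WT livers and 26.9- and 2.88-fold in the LKO livers. The estimated reads of *Nr0b2* were 309 and 518 in WT and 112 and 909 in LKO.

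Of the carriers, *Abcb11* (chromosome 2, 69238282 to 69342616, minus strand, 29 exons), the canalicular bile salt export pump, measured 37.0 and 49.1 FPKM in WT and 29.1 and 43.5 FPKM in LKO. The lower LKO liver was below both WT livers and the higher lay between them, and the log2 fold change was −0.26 (SE 0.35, 95% interval −1.01 to 0.48). An antisense gene and a pseudogene overlap *Abcb11*, and whether the counting used strand is not known for these values. *Slc10a1* (chromosome 12, 80953183 to 80968705, minus strand, 5 exons), the basolateral uptake carrier, measured 73.9 and 124.0 FPKM in WT and 101.3 and 123.9 FPKM in LKO. The LKO livers lay within the WT range, with a log2 fold change of 0.23 (95% interval −0.52 to 0.98). The level of *Slc10a1* exceeded that of *Abcb11* in every liver, by 2.00- and 2.52-fold in WT and by 3.48- and 2.85-fold in LKO.

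In all 10 genes the difference between genotype means was smaller than the larger of the differences between livers of the same genotype, as it was in 88.2% of all genes tested. After rescaling this held for 9 of the 10, against 82.5% of all genes tested. *Cyp7a1* was 6.66-fold and *Nr0b2* 8.74-fold higher in LKO replicate 2 than in LKO replicate 1. On the log2(FPKM + 0.1) scale these differences, 2.48 and 3.03, exceeded those of 99.4% and 99.8% of the 7733 genes that averaged 1 FPKM or more. The other 8 genes differed between the LKO livers by −0.28 to 0.58. Between the WT livers, *Cyp7a1* (1.61) and *Cyp8b1* (1.11) differed by more than 99.3% and 97.8% of genes, and *Baat* by −0.01. Rescaling between libraries left *Cyp7a1* 5.32-fold and *Nr0b2* 6.98-fold higher in LKO replicate 2.

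**Figure D3:**
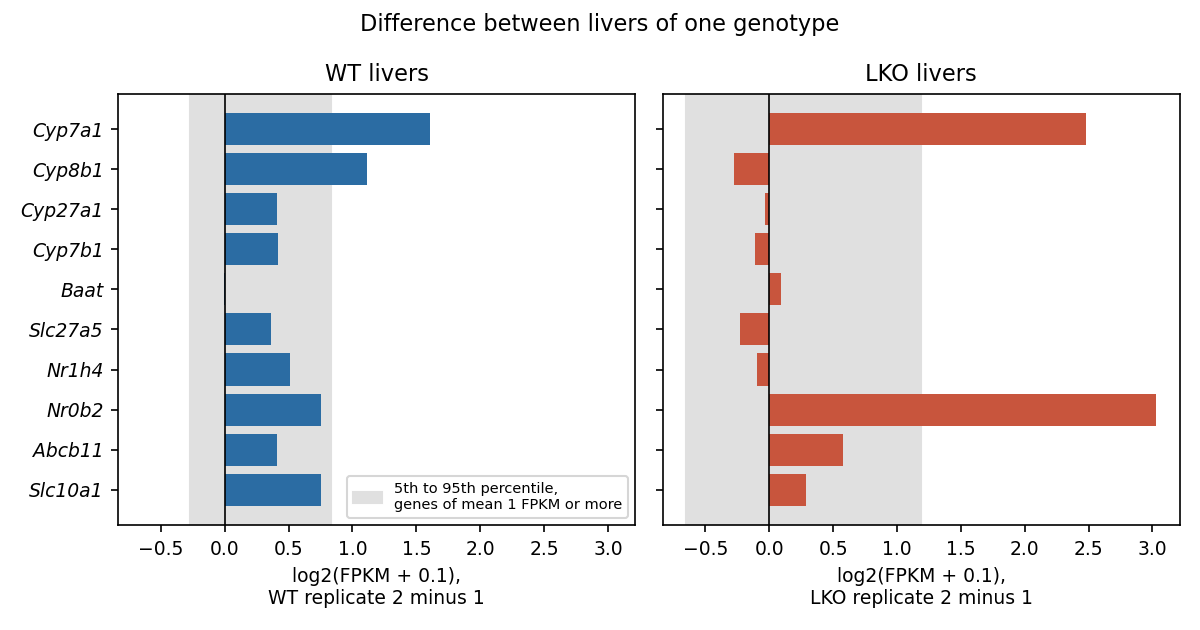
Difference in log2(FPKM + 0.1) between replicate 2 and replicate 1 of the same genotype for the 10 genes, with a grey band from the 5th to the 95th percentile of genes averaging 1 FPKM or more. *Cyp7a1* and *Nr0b2* reach 2.48 and 3.03 in the LKO livers, beyond the band that ends at 1.19.

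Because of this spread the sign of the difference in *Cyp7a1* and *Nr0b2* depended on single livers. Without LKO replicate 2 both genes passed the threshold as lower in LKO, with log2 fold changes of −1.65 (adjusted p = 0.00264, limma) and −1.72 (adjusted p = 0.00533, limma). In that fit 2.58% of all genes were called lower and 140 of the 450 genes called in either direction had an adjusted p under 0.05, so such calls were more frequent throughout. Without LKO replicate 1 both were higher in LKO, by 0.83 (adjusted p = 0.440, limma) and 1.31 (adjusted p = 0.0920, limma), and *Nr0b2* passed the study's threshold in that direction, as did 3.26% of all genes. Without WT replicate 2 the log2 fold changes were also above 0, at 0.40 and 0.17. In the fits without an LKO liver the lone LKO liver shows no spread of its own and is assumed to vary like the WT livers. The variance then comes from the WT livers and, through limma, from the pool over genes. *Cyp7a1* differed by 1.61 log2 units between the WT livers, so its small adjusted p rests on the pooled variance. Nothing in the labels sets the LKO livers apart.

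The clock genes, a list of core and output genes that follow the time of day, summed to 14.8 and 19.6 FPKM in WT and 21.0 and 18.2 FPKM in LKO, and 0 of its 10 genes were called. Within that list *Ciart*, a clock repressor singled out after its values were seen, measured 1.59 and 1.63 FPKM in WT and 5.20 and 0.469 FPKM in LKO, and *Nr1d1* 0.849, 0.607, 0.475 and 1.65 FPKM in the same order. In 5 of the 10, *Dbp*, *Tef*, *Arntl*, *Per1* and *Per2*, the LKO livers differed by less than 1.5-fold, with *Dbp* at 0.658 and 0.662 FPKM. Macrophage markers also differed between the LKO livers, with a sum over 8 genes of 39.0 and 39.3 FPKM in WT and 50.2 and 102.5 FPKM in LKO. All 8 had a log2 fold change above 0 (median 0.80), whereas 53.9% of all genes were below 0. *Cd68* (1.47) and *Vsig4* (1.00) were called, as were 0.98% of all genes, and 0 genes had an adjusted p under 0.05. *Vsig4* stood at the threshold (unadjusted p = 0.0493, limma), with 2.33 and 2.69 FPKM in WT and 2.79 and 9.32 FPKM in LKO. The part of the clock or the macrophage genes in the difference between the LKO livers was not tested.

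The genes whose pattern over the 4 livers lay nearest to that of *Cyp7a1*, by Euclidean distance of centred log2(FPKM + 0.1) values among 7732 genes, were *Cyp26b1* (distance 0.26), *Atat1* (0.55) and *Fgf21* (0.63). *Cyp26b1*, a retinoic acid hydroxylase, measured 0.622 and 2.14 FPKM in WT and 0.272 and 1.71 FPKM in LKO. *Atat1*, a tubulin acetyltransferase, measured 2.99, 5.77, 1.38 and 6.28 FPKM, and the hepatokine *Fgf21* 10.5, 24.9, 4.80 and 18.0 FPKM, in the same order. All 3 were lowest in LKO replicate 1. *Nr0b2* came 13th (distance 0.75). With 4 livers such a ranking is a description, and many genes can share a pattern.

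The order of livers seen in *Cyp7a1*, from LKO replicate 1 through the WT livers to LKO replicate 2, was shared by *Nr0b2* alone of the other members. In the wider list it was shared by 5 of 44 genes (11.4%), against 18.6% of all genes tested. After rescaling it remained in *Cyp7a1*, *Nr0b2* and, of the wider list, *Osgin1*, against 7.51% of all genes. *Osgin1* and *Fgfr4* were singled out after their values were seen. *Osgin1*, a stress-induced growth inhibitor, measured 20.9 and 39.6 FPKM in WT and 6.13 and 78.9 FPKM in LKO, a 12.9-fold difference between the LKO livers. *Fgfr4*, the hepatocyte receptor for the intestinal hormone Fgf15 that represses *Cyp7a1*, measured 2.11 and 2.42 FPKM in WT and 0.854 and 3.84 FPKM in LKO.

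**Figure D4:**
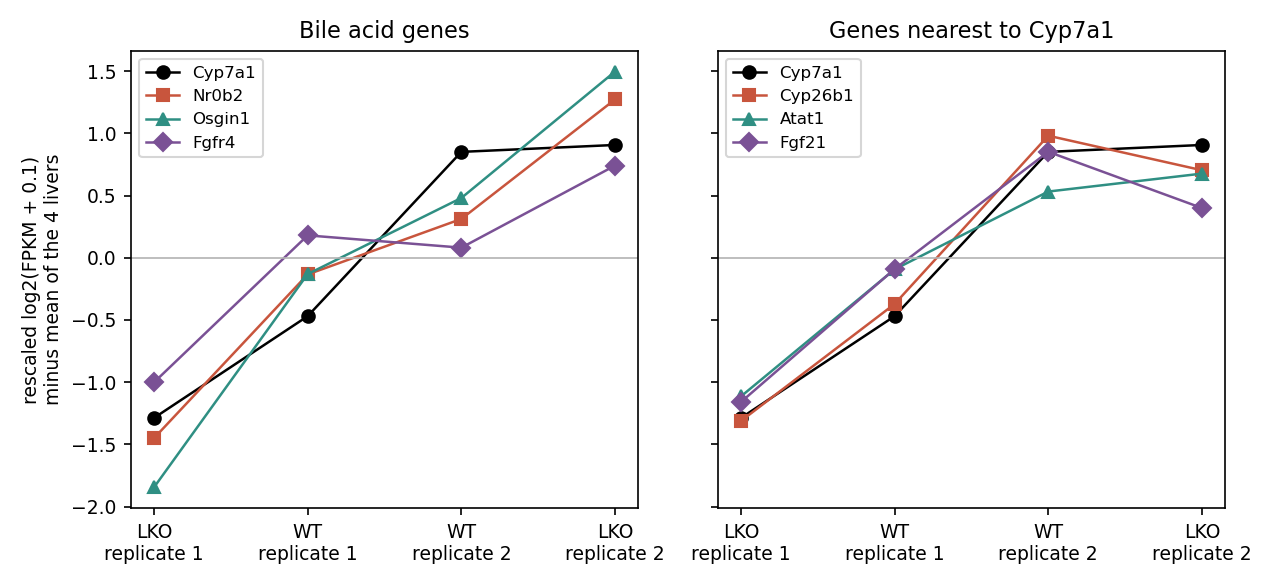
Rescaled log2(FPKM + 0.1) of each gene minus its mean over the 4 livers, ordered along the x axis by the level of *Cyp7a1*; lines only join the points of a gene. Left, *Cyp7a1* with *Nr0b2*, *Osgin1* and *Fgfr4*; right, *Cyp7a1* with the 3 nearest genes, all lowest in LKO replicate 1.

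A wider list of 48 genes of bile acid handling was read in the same fit, of which 44 passed the expression filter. *Fgf15* and *Slc51a* were listed at 0 in all 4 livers, and *Vdr* and *Gpbar1* were under the filter. By the study's threshold 0 rose and 1 fell, compared with 0.437% and 0.543% of all genes. An unadjusted p under 0.05 was found in 2 of the 44 (4.55%), against 2.00% of all genes. The median log2 fold change was −0.10, with 26 genes below 0 (59.1%, against 53.9% of all genes) and 18 above. In 7 of the 44 (15.9%) the genotypes did not overlap, 5 higher and 2 lower in LKO. By the role under which genes were listed, the medians were −0.06 for 12 synthesis genes, −0.25 for 4 under conjugation, −0.10 for 16 under regulation and −0.18 for 12 under transport.

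The gene that fell was *Slco1a4*, a basolateral uptake carrier of organic anions including bile acids. It measured 5.59 and 8.16 FPKM in WT and 5.36 and 1.74 FPKM in LKO, a log2 fold change of −1.11 (SE 0.46, 95% interval −2.09 to −0.13, adjusted p = 1, limma). LKO replicate 1 was close to the lower WT liver, and without LKO replicate 2 the log2 fold change was −0.33 and the call was lost. It was also lost without WT replicate 2 (−0.84), and after rescaling between libraries (−1.08). Close relatives in the *Slco1a* family can share reads with it. *Abcc3*, a basolateral efflux pump, measured 17.8 and 33.0 FPKM in WT and 19.9 and 18.8 FPKM in LKO. *Slc10a2*, the apical bile acid carrier of ileum and bile ducts, measured 4.79 and 1.21 FPKM in WT and 3.82 and 3.70 FPKM in LKO. Neither passed the test, with log2 fold changes of −0.32 and 0.61.

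Of the synthesis genes, *Akr1d1*, the steroid 5β-reductase, measured 4.99 and 7.08 FPKM in WT and 10.9 and 8.37 FPKM in LKO. Both LKO livers were above both WT livers, with a log2 fold change of 0.68 that did not pass the test (SE 0.35). *Hsd3b7*, which oxidizes the 3β-hydroxyl group, measured 8.37 and 12.9 FPKM in WT and 5.0 and 10.8 FPKM in LKO. *Amacr*, the racemase of side chain oxidation, measured 9.74 and 7.68 FPKM in WT and 18.9 and 7.60 FPKM in LKO. In both genes the LKO livers overlapped the WT livers, with log2 fold changes of −0.49 and 0.47.

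Of the conjugation genes, *Acnat2* measured 105.7 and 108.5 FPKM in WT and 40.8 and 126.4 FPKM in LKO. Its neighbour *Acnat1* measured 42.2 and 42.1 FPKM in WT and 19.7 and 51.4 FPKM in LKO. These acyltransferases are near relatives of *Baat* and of each other, so reads may be split between them, and each was lowest and highest in the LKO livers. Their log2 fold changes were −0.58 and −0.40. *Ephx1*, the microsomal epoxide hydrolase, was listed with them although it does not conjugate. It measured 110.0 and 216.3 FPKM in WT and 170.2 and 122.1 FPKM in LKO, both inside the WT range as deposited. After rescaling both were outside it, with 120.9 and 192.2 FPKM in WT and 192.6 and 110.4 FPKM in LKO.

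Among the genes listed under regulation, *Pltp*, a phospholipid transfer protein gene and not a regulator, measured 8.39 and 9.47 FPKM in WT and 12.0 and 19.6 FPKM in LKO. Its log2 fold change of 0.78 (SE 0.35, adjusted p = 1, limma) had an unadjusted p under 0.05 but was under 2-fold, and so was not called. Without LKO replicate 1 it was 1.13 and passed the threshold, and without LKO replicate 2 it was 0.42. *Pltp* was highest in LKO replicate 2, as was the macrophage sum given above (102.5 FPKM), and the part of macrophages in it was not tested. *Ppara*, the fatty acid receptor, measured 1.58 and 1.80 FPKM in WT and 2.39 and 3.34 FPKM in LKO, with a log2 fold change of 0.71 that did not pass the test. *Nr1i3* (CAR) measured 16.0 and 37.3 FPKM in WT and 9.37 and 25.0 FPKM in LKO, which overlapped, with a log2 fold change of −0.67. Of the factors whose motifs are printed above, *Nr5a2* ran from 5.70 to 6.12 FPKM and *Hnf4a* from 48.9 to 61.9 FPKM over the 4 livers, and *Nr1h4* from 31.9 to 54.3 FPKM.

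**Figure D5:**
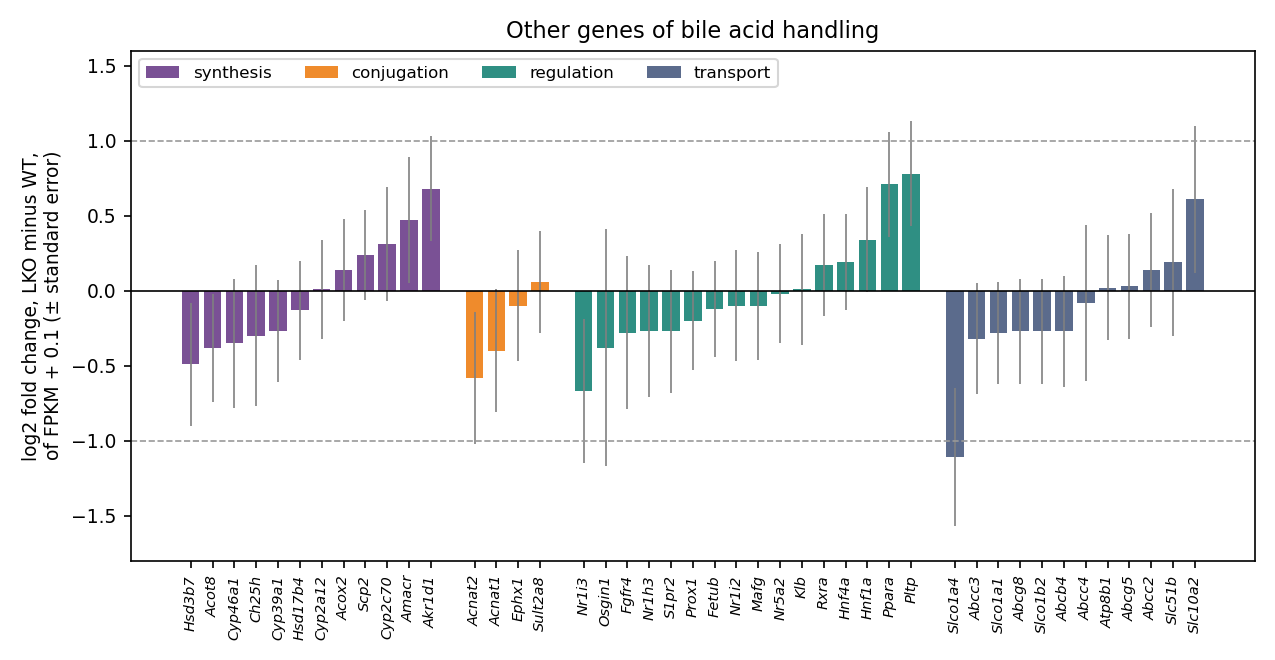
Log2 fold change of log2(FPKM + 0.1), LKO minus WT, for the 44 genes of the wider list that were tested, by role, with the standard error from limma; dashed lines mark a 2-fold change. *Slco1a4* at −1.11 is the only bar past a dashed line.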

How the data were processed

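Total RNA of 4 whole livers (2 WT, 2 LKO) was sequenced. According to the paper the authors made stranded TruSeq libraries read as paired ends of 150 bases, trimmed reads with Trimmomatic, aligned them to GRCm38 (HISAT2) and calculated FPKM with Cufflinks, while the labels name a BGIseq protocol and the submitters' processing notes name HISAT2 2.0.4 and StringTie 2.1.4. The deposited values are FPKM, 1 per gene and liver. FPKM divides by transcript length and library total, so a shift in a few abundant genes moves all others. Groups and replicate numbers came from the labels, which do not say what else separated the replicates.

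The linear model of limma 3.58.1 (R 4.3.3), with a trended eBayes prior, was fitted to log2(FPKM + 0.1), a scale that understates changes of low genes. It covered the 12346 genes that averaged 0.1 FPKM or more. Adjusted p-values are Benjamini-Hochberg over all of them. With 2 livers against 2, a two-sided permutation test cannot give a p under 0.333, so each p-value depends on the variance that limma pools over genes. Reads per gene were estimated from the FPKM value of 1 read on transcripts of known length (GENCODE M21, 98.3% of identifiers), where 88.5% to 89.5% of low values lay within 0.1 of a whole read. Whether a read is a single read or a pair is not known, and Poisson intervals cover counting error only. The code of the fit was run on simulated data with equal noise in every gene, which is unlike the uneven spread between these livers. That run does not show how well small changes are found here. Python 3.11.15 was used for the summaries, the sequences and the figures.

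The members, the lists and the tests were chosen with earlier results of these data known. The text names the 10 members, *Smarca4*, the called genes of the wider list and the 3 with the largest absolute log2 fold change in each role, and the 3 genes nearest to *Cyp7a1*. *Osgin1*, *Fgfr4*, *Nr5a2*, *Hnf4a* and the clock and macrophage genes named were added after their values were seen. Alternative fits used a pseudocount of 1 or 0.01, all genes without a filter, a minimum average of 1 FPKM, quantile normalization, median-ratio rescaling, an untrended eBayes prior, a block for the replicate number, each liver left out in turn and, added after the data were seen, voom on the estimated reads.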

Additional observations from a re-analysis of the deposited data

How the results depend on the processing

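The 2 livers per group limit every comparison above, and low genes such as *Cyp7a1* also carry counting error. Of the 10 members 0 were called under every alternative fitted to all 4 livers. Leaving out 1 liver gave 0 to 2 members called, *Nr0b2* (1 member) without LKO replicate 1 and *Cyp7a1* and *Nr0b2* without LKO replicate 2. Members that did not overlap between genotypes numbered 1 as deposited (20.7% of all genes), 3 after median-ratio rescaling (29.0%), 3 after quantile normalization (29.4%; *Cyp27a1*, *Nr1h4* and *Abcb11*, all lower) and 5 to 7 with 1 liver left out (48.5% to 69.6%), where fewer livers have to separate. The 121 genes called became 18 with a pseudocount of 1, 80 with no filter, 68 with a minimum average of 1 FPKM, and 78 to 552 with 1 liver left out. The call of *Slco1a4*, 1 gene of the wider list, fell to 0 with a pseudocount of 1, no filter, median-ratio rescaling or quantile normalization, and the list ranged from 0 to 8 called genes with 1 liver left out. The replicate differences of the genotypes did not correlate over 12346 genes (r = 0.03). A correlation over genes cannot show a shift common to most genes, such as the higher values of both second replicates. Whether livers with the same replicate number shared a batch is not given by the labels. A fit with the replicate number as a block called 108 genes, 0 members and 0 genes of the wider list. With voom, 157 genes were called. The cause of these shifts was not tested.

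Quantile normalization turned the sign of *Baat* (−0.0035) and *Slc27a5* (−0.06). With 1 liver left out, 9 of the 10 members took both signs, all but *Nr1h4* (−0.72 to −0.21). The log2 fold changes then ran from −1.65 to 0.83 for *Cyp7a1*, −0.27 to 0.84 for *Cyp8b1*, −0.38 to 0.03 for *Cyp27a1*, −0.41 to 0.01 for *Cyp7b1*, −0.01 to 0.08 for *Baat*, −0.14 to 0.22 for *Slc27a5*, −1.72 to 1.31 for *Nr0b2*, −0.55 to 0.03 for *Abcb11* and −0.15 to 0.60 for *Slc10a1*. In the wider list they ran from −1.04 to 0.06 for *Hsd3b7*, −0.18 to 1.12 for *Amacr*, −1.39 to 0.24 for *Acnat2*, −1.09 to 0.29 for *Acnat1*, −0.58 to 0.39 for *Ephx1*, −1.37 to 0.04 for *Nr1i3*, −0.34 to 1.55 for *Slc10a2*, −0.77 to 0.12 for *Abcc3*, −1.90 to −0.33 for *Slco1a4*, 0.42 to 1.13 for *Pltp*, 0.43 to 0.92 for *Akr1d1* and 0.48 to 0.94 for *Ppara*.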
